A study of Mus musculus with 192 samples.

Results

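RNA levels are described here for 41 mouse genes of the cell cycle and of DNA replication, out of 45191 gene identifiers listed in total RNA. The set was named gene by gene from textbook function, with earlier results of these data known. By function the set held 10 genes of origin licensing and the replicative helicase, 5 genes of the replication fork and nucleotide supply, 9 genes of the G1 and G1/S machinery, 3 inhibitors of cyclin-dependent kinases (CDKs), 6 genes of S, G2 and M cyclins with Cdk1 and its checkpoints, and 8 genes of mitotic kinases, the spindle checkpoint and mitotic chromosomes. All libraries were made from wild-type E14 mouse embryonic stem cells (mESCs), a cultured line taken from a mouse blastocyst. Cells were collected after 6, 12 or 24 h, at 36 and 48 h, and at 72 and 96 h of differentiation in N2B27 medium with all-trans retinoic acid (RA) at 0.25 µM, and cells at 0 h came from 2i medium, which contains LIF, the MEK inhibitor PD0325901 and the GSK3 inhibitor CHIR99021; the RA medium was renewed at 48 h. RA addition and the loss of LIF and both inhibitors therefore coincided in every later group, and their effects cannot be told apart. Nuclear and cytoplasmic RNA was sequenced in 24 libraries each, with 3 runs of the differentiation at each of 8 times. Runs 5, 6 and 7 are the biological replicates of these numbers in the labels. Total RNA of unsorted cells came in 14 libraries, and RNA of cells sorted at 96 h by CD24 and PDGFRA on their surface came in 1 library of extraembryonic endoderm-like (XEN) cells and 1 of ectoderm-like (ECT) cells. The fraction data listed 31 of the 41 genes. Mcm5 and Gins2 on chromosome 8, Rrm1, Ccnd1, Ccne1, Wee1, Plk1 and Mki67 on chromosome 7, and Ccnb2 and Chek1 on chromosome 9 are given from total RNA only.

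A cell may copy its genome once per division. In G1 the origin recognition complex and Cdc6 load the Mcm2 to Mcm7 helicase on DNA, cyclin D with Cdk4 or Cdk6 and cyclin E with Cdk2 release E2F factors from the retinoblastoma protein, and E2F then drives genes of S phase. Cyclin A, cyclin B and Cdk1 carry the cell through S, G2 and mitosis, where Aurora and Polo kinases and the spindle checkpoint separate the chromosomes. mESCs are known for fast cycles with a short G1, high cyclin E activity and little cyclin D, and cells leaving pluripotency are known to lengthen G1.

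Values are normalised read counts on the CPM scale, that is, the reads of a gene scaled to the size of its library with a TMM factor, which corrects for differences in RNA composition. Library totals were 6860451 to 30624948 counts in nuclear RNA, 9119521 to 21652601 in cytoplasmic RNA, 29362017 to 36364330 in single-end total RNA and 12653980 to 13692847 in paired-end total RNA. A gene is said to have risen or fallen where the Benjamini-Hochberg adjusted p of edgeR's quasi-likelihood test over all genes tested was under 0.05. Errors of log2 fold changes are standard errors and those of means are SD with n = 3. The cytoplasmic libraries of run 5 at 6 h and at 72 h were uneven, with 956 and 577 of 11675 tested genes at 0. Leaving both out lost no call at 6 h or 96 h among the members. The mix of cells also changed: the summed level of 6 listed naive pluripotency markers in cytoplasmic RNA was 257.4 to 341.2 CPM at 96 h, against 5854 to 6041 CPM at 0 h, the sum of 10 listed XEN markers was 20340 to 32440 CPM at 96 h, against 580.6 to 635.7 CPM at 0 h, and the sum of 6 listed fibroblast markers was 197.5 to 232.2 CPM at 96 h, against 27.3 to 31.6 CPM at 0 h, where Acta2 and S100a4 were at 0. Acta2 held 132.4 to 144.5 CPM of the fibroblast sum at 96 h. The sum of 5 listed ectoderm markers in cytoplasmic RNA was 680.9 to 706.3 CPM at 96 h, against 169.1 to 194.5 CPM at 0 h. The part of these changes in the results below was not tested. In RNA from whole cultures fewer cells of a type and less RNA per cell cannot be told apart.

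The cell cycle genes moved in opposite ways early and late. At 6 h in cytoplasmic RNA, 15 of 31 members had risen and 2 had fallen, where 16.2% and 17.1% of all 11675 tested genes had risen and fallen. In both directions together that is 17 members, where 33.4% of all genes were called. The median change of the members was 0.18 on the log2 scale, against -0.02 over all genes. At 12 h 12 had risen and 1 had fallen (16.8% and 17.5% of all genes, 34.3% together), and at 24 h 12 had risen and 6 had fallen (21.2% and 22.6%, 43.8% together). The balance then turned: 11 had risen and 11 had fallen at 36 h (24.4% and 26.2%, 50.6% together), and 9 had risen and 13 had fallen at 48 h (28.4% and 28.6%, 57.1% together). At 72 h 6 had risen and 18 had fallen (32.5% and 32.9%, 65.4% together). The counts at 96 h were the same, 6 and 18 (33.3% and 34.4%, 67.7% together), and the members' median was -0.22, against -0.02 over all genes. The early rise was led by the mitotic group, of which all 6 listed members rose, and the late fall by the licensing and fork groups, of which 11 of 12 listed members fell. The 6 h cytoplasmic count was 17 and dropped to 10 without run 6.

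Nuclear RNA, taken from the same runs, gave the same order. At 6 h, 16 of 31 members had risen and 1 had fallen (10.7% and 9.61% of 11934 genes, 20.3% together), with a median of 0.29 against -0.02 over all genes. At 12 h 14 had risen and 2 had fallen (11.5% and 12.4% of all genes, 23.9% together), at 24 h 10 and 6 (15.1% and 14.4%, 29.5% together), and at 36 h 9 and 6 (19.5% and 19.4%, 38.9% together). At 48 h 7 had risen and 11 had fallen (23.6% and 21.3%, 45.0% together), and at 72 h 6 and 14 (27.5% and 25.7%, 53.2% together). At 96 h, 6 had risen and 15 had fallen (27.7% and 27.8%, 55.5% together), with a median of -0.14 against -0.02 over all genes. The nuclear count at 6 h was 17 and dropped to 10 without run 5 and to 11 without run 6, and the count at 96 h was 21 and dropped to 13 without run 6. Between these times the nuclear counts dropped to 10 at 12 h without run 5 or without run 6, to 10 at 24 h and 11 at 48 h without run 5, and to 13 at 72 h without run 6. In cytoplasmic RNA all 3 libraries at 96 h lay above all 3 at 0 h for 6 members and below them for 19, and the times overlapped for 6, where 74.9% of all genes did not overlap. In nuclear RNA at 96 h, 7 members lay above, 16 below and 8 overlapped (65.8% of all genes did not overlap).

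**Figure D1:**
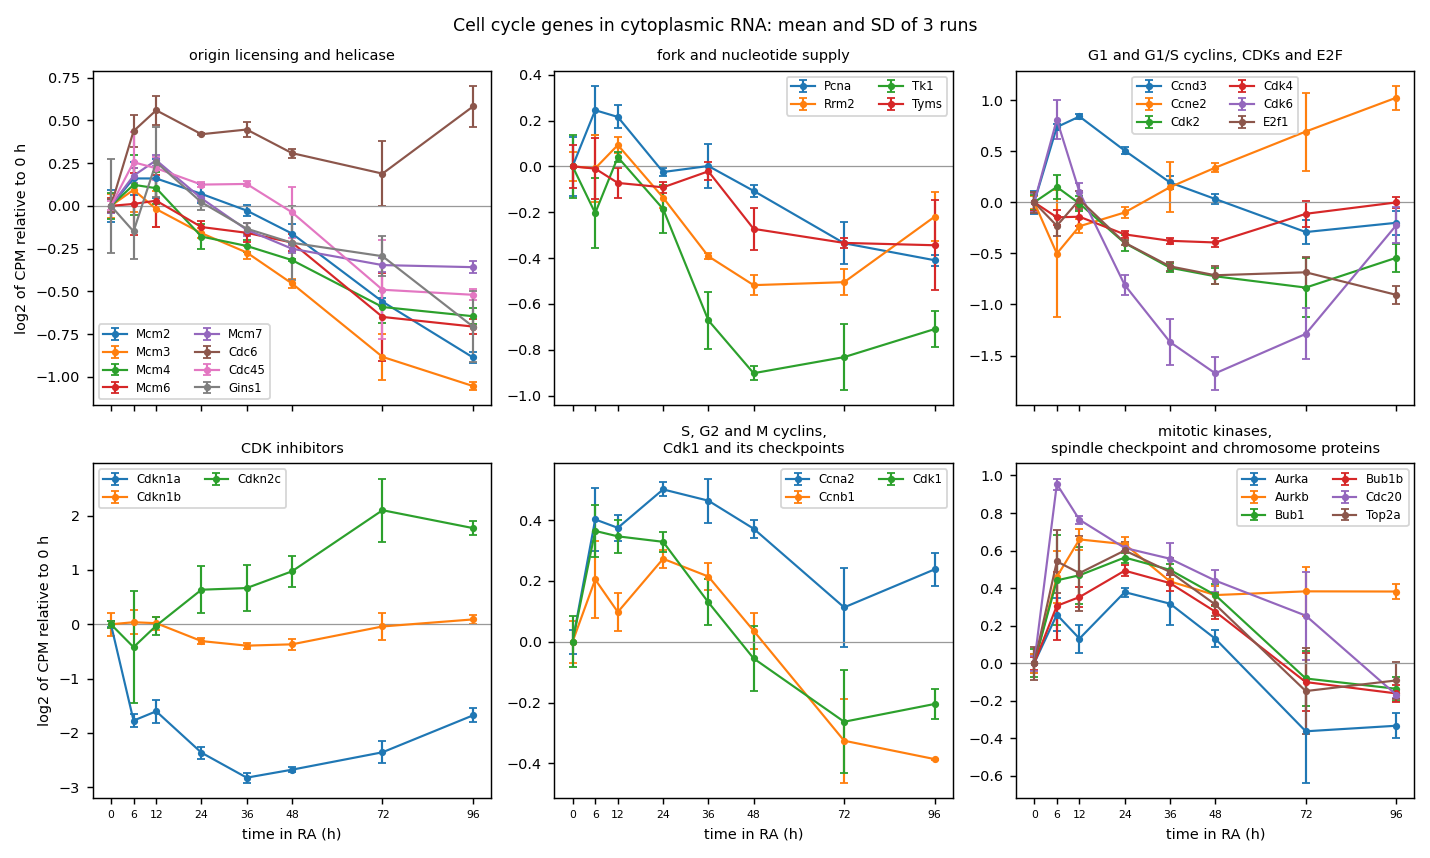
Cytoplasmic log2 change from 0 h (y axis) against time in RA in hours (x axis), 1 panel per functional group and 1 line per gene, as mean and SD of 3 runs; Ccnd2 lies off the scale and is not drawn. Mitotic genes stand above 0 h at 6 to 48 h, Cdkn1a lies below 0 h at every later time, and the licensing genes other than Cdc6 end below 0 h.

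The time of the highest mean level differed between genes, also within a functional group. In cytoplasmic RNA, Mcm3, Mcm4, Cdc45, Pcna, Cdk2, Cdk6, Cdk1 and Cdc20 were highest at 6 h, and Mcm2, Mcm6, Mcm7, Gins1, Rrm2, Tk1, Ccnd3, E2f1 and Aurkb at 12 h. Ccna2, Ccnb1, Aurka, Bub1, Bub1b and Top2a were highest at 24 h. Cdc6, Ccnd2, Ccne2 and Cdkn1b were highest at 96 h. For 19 of 31 members the nuclear maximum fell at the same time as the cytoplasmic one. Of the genes highest at 24 h in cytoplasmic RNA, only Bub1 and Bub1b were so in nuclear RNA. Nuclear Cdc6 was highest at 6 h and nuclear Cdkn1b at 0 h. The highest mean could lie within the SD of the mean at another time. Cytoplasmic Tk1 was at 109.3 ± 1.6 CPM at 12 h and 106.6 ± 10.4 CPM at 0 h, with 92.6 ± 9.39 CPM at 6 h between them.

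Of the licensing and helicase genes, 7 of 8 listed members fell by 96 h in cytoplasmic RNA and 1 rose (34.4% and 33.3% of all genes), and nuclear RNA gave the same counts (27.8% and 27.7% of all genes). The median change was -0.50 in nuclear and -0.68 in cytoplasmic RNA. The nuclear calls of Mcm7 and Gins1 were lost without run 5 and without run 6. Mcm3, a subunit of the replicative helicase (GRCm38, chr1:20802968-20820312, minus strand), was at 377.4, 366.2 and 369.1 CPM at 96 h in cytoplasmic RNA of runs 5, 6 and 7, against 728.0, 781.7 and 801.5 CPM at 0 h. Its nuclear libraries held 434.4, 428.0 and 348.5 CPM at 96 h, against 765.1, 777.3 and 653.9 CPM at 0 h. The times did not overlap in either fraction, and Mcm3 fell by 1.05 ± 0.07 on the log2 scale in cytoplasmic RNA (adjusted p = 1.09e-11) and by 0.86 ± 0.12 in nuclear RNA (adjusted p = 1.76e-06). The loss came late: mean cytoplasmic Mcm3 was 770.4 CPM at 0 h, 823.5 at 6 h, 689.1 at 24 h, 562.1 at 48 h and 370.9 at 96 h.

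The other helicase subunits listed in the fractions took the same course with smaller changes. Mcm2 was at 374.7, 387.1 and 391.0 CPM at 96 h in cytoplasmic RNA, against 660.5, 724.2 and 748.9 CPM at 0 h, and fell by 0.89 ± 0.07 (adjusted p = 4.65e-11). Mcm4 was at 322.1, 329.2 and 308.7 CPM at 96 h, against 470.9, 514.7 and 516.7 CPM at 0 h, and fell by 0.65 ± 0.08 (adjusted p = 8.8e-08). For both genes every library at 96 h lay below every library at 0 h. Mcm7 changed least, with 572.5, 553.0 and 545.1 CPM at 96 h, against 736.0, 711.6 and 694.3 CPM at 0 h, a change of -0.36 ± 0.05 (adjusted p = 7.85e-07). Mcm6 fell by 0.71, Gins1, part of the GINS complex of the active helicase, by 0.71, and Cdc45, which joins Mcm and GINS at the firing origin, by 0.52.

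Cdc6, the loader of the Mcm ring, went the other way. It was at 132.6, 143.2 and 156.7 CPM at 96 h in cytoplasmic RNA, against 93.3, 98.0 and 97.3 CPM at 0 h. Nuclear RNA held 124.4, 147.0 and 130.4 CPM at 96 h, against 86.6, 96.2 and 85.4 CPM at 0 h. All libraries at 96 h were above all at 0 h in both fractions, and Cdc6 rose by 0.58 ± 0.08 in cytoplasmic RNA (adjusted p = 1.12e-06) and by 0.58 ± 0.10 in nuclear RNA (adjusted p = 2.39e-05). The rise was present at 6 h, with 120.8, 136.4 and 133.9 CPM in cytoplasmic RNA (0.44 ± 0.08, adjusted p = 0.000185).

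The promoters of the licensing genes are shown because E2F factors are known to drive them at G1/S. RefSeq promoter windows on GRCm38.p6, 250 bases before to 50 bases after the annotated start, were found for 32 of 41 members. The words TTTCGCGC, TTTGGCGC, TTTCCCGC and TTTGCCGC were searched on both strands as exact E2F-type words, and they occurred in 7 of 32 members (21.9%), against 704 of 27025 genes with a window (2.6%). Of the 7 licensing genes with a window, 5 held such a word, which was also found in Cdk2 and Cdk1. In the stretches below the capitals mark the word, read 5′ to 3′ on the transcribed strand and in some cases as its reverse complement. They lie at chr11:98908002-98908031 on the plus strand (Cdc6), and on the minus strand at chr1:20820275-20820304 (Mcm3), chr1:128359734-128359763 (Mcm6) and chr5:138171849-138171878 (Mcm7), and at chr8:75109345-75109374 on the plus strand (Mcm5).
Cdc6: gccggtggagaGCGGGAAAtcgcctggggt
Mcm3: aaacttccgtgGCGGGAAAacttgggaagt
Mcm5: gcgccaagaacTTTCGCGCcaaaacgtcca
Mcm6: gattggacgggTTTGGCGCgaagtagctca
Mcm7: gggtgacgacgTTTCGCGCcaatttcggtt
Mcm3, Mcm5 and Mcm7 each held a second E2F-type word, which in Mcm5 overlaps the one shown. Mcm6 held 3 such words, and the 2 not shown overlap each other. Cdc6, which rose, and Mcm3, which fell, hold the same word, GCGGGAAA as printed. A word match describes the sequence and does not show binding.

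Of 4 listed genes of the fork and of nucleotide supply, Pcna alone was called at 6 h and 12 h in cytoplasmic RNA (33.4% and 34.3% of all genes). None was called at 24 h (43.8% of all genes). By 96 h 4 of 4 had fallen in cytoplasmic RNA (34.4% of all genes) and 2 of 4, Pcna and Tk1, in nuclear RNA (27.8%), where the Pcna call was lost without run 5 and without run 6. Tk1, thymidine kinase of the salvage pathway, was at 62.6, 63.4 and 69.2 CPM at 96 h in cytoplasmic RNA, against 118.6, 102.1 and 99.2 CPM at 0 h. Nuclear RNA held 82.0, 77.1 and 80.1 CPM at 96 h, against 117.1, 124.7 and 116.4 CPM at 0 h. The times did not overlap, and Tk1 fell by 0.71 ± 0.09 in cytoplasmic RNA (adjusted p = 3.7e-07) and by 0.58 ± 0.10 in nuclear RNA (adjusted p = 2.24e-05). Its lowest cytoplasmic mean, 56.9 ± 1.17 CPM, was at 48 h.

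Pcna, the sliding clamp of DNA polymerases, rose before it fell. It was at 350.0, 390.3 and 402.8 CPM at 6 h in cytoplasmic RNA and at 241.2, 245.9 and 237.8 CPM at 96 h, against 354.9, 311.8 and 298.8 CPM at 0 h. Run 5 at 6 h lay within the 0 h range, while all libraries at 96 h lay below it, and the changes were 0.24 ± 0.07 at 6 h (adjusted p = 0.00939) and -0.41 ± 0.07 at 96 h (adjusted p = 1.77e-05). The 6 h call of Pcna was lost without run 6 and without run 7. Tyms, thymidylate synthase, was at 98.6, 92.0 and 75.8 CPM at 96 h, against 119.7, 111.6 and 105.3 CPM at 0 h, and fell by 0.33 ± 0.08 (adjusted p = 0.00127). Rrm2, the regulated subunit of ribonucleotide reductase, was at 285.6, 296.2 and 256.7 CPM at 96 h, against 340.2, 323.4 and 311.6 CPM at 0 h, a change of -0.22 ± 0.07 (adjusted p = 0.00687) that was lost without run 7. In nuclear RNA at 96 h, Rrm2 changed by -0.01 ± 0.11 and Tyms by -0.09 ± 0.12, which did not pass the test.

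**Figure D2:**
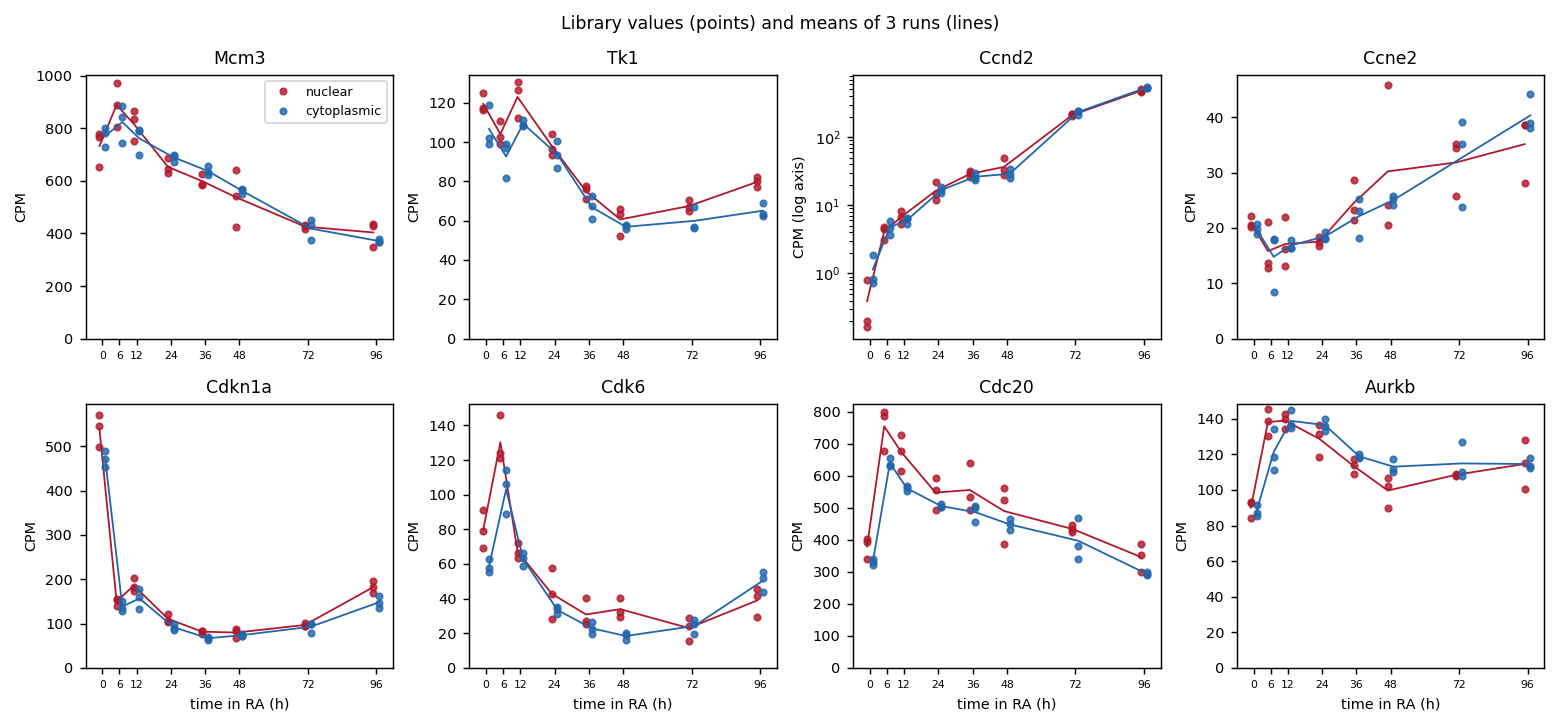
CPM in every nuclear and cytoplasmic library (points) against time in RA in hours for 8 genes, 1 panel each, with lines through the means of 3 runs; the axis for Ccnd2 is logarithmic. Mcm3 and Tk1 end lower at 96 h than at 0 h, Ccnd2 and Ccne2 end higher, Cdkn1a drops at 6 h, and Cdc20 is highest at 6 h.

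The G1 cyclins did not all change in the same direction. Ccnd2, cyclin D2 (GRCm38, chr6:127125162-127152193, minus strand), was at 525.2, 552.3 and 527.4 CPM at 96 h in cytoplasmic RNA, against 1.86, 0.719 and 0.839 CPM at 0 h. Nuclear RNA held 471.7, 505.4 and 457.0 CPM at 96 h, against 0.200, 0.166 and 0.811 CPM at 0 h. Ccnd2 rose by 8.90 ± 0.21 on the log2 scale in cytoplasmic RNA (adjusted p = 2.24e-19) and by 10.20 ± 0.36 in nuclear RNA (adjusted p = 8.83e-17). The 0 h libraries hold few Ccnd2 reads, so the size of the fold is imprecise, while the groups lie far apart. On the TPM scale, which divides by gene length and so allows genes to be ranked, cytoplasmic Ccnd2 was at 135.8 TPM at 96 h and at 0.333 ± 0.15 TPM at 0 h, the lowest of the 31 listed members at 0 h.

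Cyclin D2 was up within 6 h and climbed mainly after 48 h. At 6 h cytoplasmic Ccnd2 was at 3.65, 5.95 and 4.61 CPM, a change of 2.04 ± 0.27 (adjusted p = 3.32e-06), at 24 h at 15.0, 16.8 and 18.5 CPM, and at 48 h at 28.4, 33.8 and 24.8 CPM. Cyclin D3 (Ccnd3), named here after its values were seen, took a different course. It was at 423.4, 426.0 and 438.7 CPM at 6 h in cytoplasmic RNA, against 236.6, 263.3 and 274.4 CPM at 0 h, a change of 0.73 ± 0.07 (adjusted p = 2.81e-08). At 96 h its mean was 224.7 ± 18.8 CPM, against 258.1 ± 19.5 CPM at 0 h, a change of -0.20 ± 0.07 (adjusted p = 0.0147) that was lost without run 6 and without run 7.

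Ccne2, cyclin E2, rose late. It was at 38.0, 44.1 and 38.9 CPM at 96 h in cytoplasmic RNA, against 20.7, 19.8 and 18.9 CPM at 0 h. Nuclear RNA held 38.7, 28.1 and 38.7 CPM at 96 h, against 20.2, 20.5 and 22.2 CPM at 0 h. All libraries at 96 h were above all at 0 h, and Ccne2 rose by 1.03 ± 0.20 in cytoplasmic RNA (adjusted p = 0.000105) and by 0.74 ± 0.25 in nuclear RNA (adjusted p = 0.0158), a nuclear call that was lost without run 5 and without run 6. Its mean at 6 h, 14.8 ± 5.46 CPM in cytoplasmic RNA, did not differ from 0 h by the test (adjusted p = 0.112), and run 5 there had 8.48 CPM.

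E2f1, the activating E2F factor, was at 51.9, 50.6 and 46.1 CPM at 96 h in cytoplasmic RNA, against 100.7, 88.4 and 89.6 CPM at 0 h, and fell by 0.90 ± 0.08 (adjusted p = 2.07e-09). Its nuclear libraries spread more, with 67.2, 47.5 and 42.0 CPM at 96 h, against 54.1, 84.8 and 89.0 CPM at 0 h, where the times overlapped. The nuclear change of -0.55 ± 0.22 (adjusted p = 0.0364) was lost without run 6 and without run 7. Cdk2, the partner of cyclins E and A, was at 123.8, 116.4 and 140.1 CPM at 96 h in cytoplasmic RNA, against 195.1, 180.6 and 177.1 CPM at 0 h, with no overlap and a change of -0.54 ± 0.10 (adjusted p = 6.25e-05). Nuclear Cdk2 was at 119.9, 124.9 and 145.9 CPM at 96 h, against 260.1, 215.0 and 244.8 CPM at 0 h, and fell by 0.88 ± 0.11 (adjusted p = 3.31e-07).

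Both cyclin D kinases, Cdk4 and Cdk6, fell at 24, 36 and 48 h in both fractions. At 48 h Cdk4 changed by -0.39 ± 0.07 in cytoplasmic RNA (adjusted p = 3.04e-05) and by -0.53 ± 0.10 in nuclear RNA (adjusted p = 0.000115). Cdk4 was the most abundant listed member by TPM in cytoplasmic RNA, with 597.8 ± 56.8 TPM at 96 h and 498.8 ± 80.9 TPM at 0 h, and on the CPM scale did not pass the test at 96 h (0.00 ± 0.07, adjusted p = 0.987). Cdk6, named after its values were seen, rose at 6 h before it fell. It was at 88.6, 106.1 and 114.5 CPM at 6 h and at 18.9, 20.1 and 16.2 CPM at 48 h in cytoplasmic RNA, against 57.8, 62.6 and 55.3 CPM at 0 h, changes of 0.82 ± 0.13 (adjusted p = 2.77e-05) and -1.67 ± 0.14 (adjusted p = 5.82e-10). At 96 h it was at 43.7, 55.6 and 51.7 CPM in cytoplasmic RNA, partly within the 0 h range (-0.22 ± 0.13, adjusted p = 0.14). Nuclear Cdk6 was at 29.5, 41.6 and 45.6 CPM at 96 h, against 91.0, 78.9 and 69.4 CPM at 0 h, a change of -1.03 ± 0.23 (adjusted p = 0.000573).

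Among the inhibitors, Cdkn1a, which encodes p21 (GRCm38, chr17:29090976-29100727, plus strand), fell sharply within 6 h. It was at 151.6, 134.5 and 128.9 CPM at 6 h in cytoplasmic RNA, against 489.3, 453.9 and 471.5 CPM at 0 h. In nuclear RNA it was at 154.3, 153.5 and 140.4 CPM at 6 h, against 498.5, 546.4 and 570.6 CPM at 0 h. All libraries at 6 h were far below all at 0 h, and Cdkn1a fell by 1.77 ± 0.10 in cytoplasmic RNA (adjusted p = 1.04e-11) and by 1.85 ± 0.11 in nuclear RNA (adjusted p = 7.23e-12). The cytoplasmic mean was lowest at 36 h, with 66.8 ± 4.16 CPM, and came partly back to 135.4, 146.5 and 162.0 CPM at 96 h, still 1.67 log2 units below 0 h. By TPM, Cdkn1a ranked 13 of 31 members in cytoplasmic RNA at 96 h and 2 at 0 h.

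Cdkn2c, which encodes the Cdk4 and Cdk6 inhibitor p18, rose from a low level. It was at 12.5, 11.2 and 10.5 CPM at 96 h in cytoplasmic RNA, against 3.35, 3.19 and 3.48 CPM at 0 h, without overlap, and rose by 1.77 ± 0.35 (adjusted p = 0.000129). Nuclear Cdkn2c was at 23.4, 12.6 and 10.7 CPM at 96 h, against 0.899, 2.93 and 4.26 CPM at 0 h, and rose by 2.50 ± 0.44 (adjusted p = 3.62e-05). Cdkn1b, which encodes p27, was at 51.1, 46.1 and 49.5 CPM at 96 h in cytoplasmic RNA, against 54.3, 41.8 and 42.6 CPM at 0 h, and the times overlapped (0.08 ± 0.13, adjusted p = 0.581). In between it fell, at 24, 36 and 48 h in cytoplasmic RNA and at 24 and 36 h in nuclear RNA, with a change of -0.40 ± 0.13 at 36 h in cytoplasmic RNA (adjusted p = 0.0113).

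Cyclins of S, G2 and M with Cdk1 rose early, 3 of 3 listed members at 6 h in both fractions (16.2% of all genes in cytoplasmic and 10.7% in nuclear RNA). The nuclear 6 h call of Ccnb1 was lost without run 5, without run 6 and without run 7, and that of Cdk1 without run 5 and without run 6. Ccna2, cyclin A2 of S phase and G2, was at 242.1, 271.8 and 276.3 CPM at 6 h and at 225.2, 236.4 and 242.7 CPM at 96 h in cytoplasmic RNA, against 193.1 to 203.9 CPM in the 3 libraries at 0 h. Both later times lay above 0 h in every library, with rises of 0.40 ± 0.07 at 6 h (adjusted p = 4.56e-05) and 0.24 ± 0.07 at 96 h (adjusted p = 0.00286), the later one lost without run 6. Ccnb1, cyclin B1 of mitotic entry, was at 422.3, 480.8 and 499.9 CPM at 6 h and at 309.7, 309.4 and 310.0 CPM at 96 h, against 423.7, 406.2 and 385.2 CPM at 0 h. Its 6 h libraries reached into the 0 h range and its 96 h libraries lay below it, with a change of 0.21 ± 0.07 at 6 h (adjusted p = 0.0246), lost without run 6 and without run 7, and a change of -0.39 ± 0.07 at 96 h (adjusted p = 3.81e-05). Cdk1, the kinase of mitotic entry, was at 238.7, 245.2 and 267.8 CPM at 6 h and at 162.7, 169.1 and 174.4 CPM at 96 h, against 206.7, 193.0 and 184.1 CPM at 0 h. It rose by 0.37 ± 0.08 at 6 h (adjusted p = 0.000778) and fell by 0.21 ± 0.08 at 96 h (adjusted p = 0.0227). The 6 h call was lost without run 7, and the 96 h call without run 5 and without run 6.

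All 6 listed mitotic genes rose in cytoplasmic RNA at 6 h (16.2% of all genes), with a median of 0.46, and 5 of 6, all but Aurka, in nuclear RNA (10.7%). Without run 6 the cytoplasmic calls of Aurka, Bub1 and Bub1b were lost, and without run 7 those of Aurka and Bub1b. At 96 h in cytoplasmic RNA, 1 had risen and 1 had fallen (33.3% and 34.4% of all genes). Cdc20, which activates the anaphase-promoting complex (GRCm38, chr4:118432901-118437352, minus strand), was at 654.9, 634.2 and 630.1 CPM at 6 h in cytoplasmic RNA, against 321.1, 339.3 and 330.5 CPM at 0 h. Nuclear RNA held 799.9, 786.4 and 677.4 CPM at 6 h, against 403.0, 393.3 and 340.9 CPM at 0 h. The times were far apart in both fractions, and Cdc20 rose by 0.95 ± 0.08 in cytoplasmic RNA (adjusted p = 2.42e-09) and by 0.99 ± 0.13 in nuclear RNA (adjusted p = 4.17e-06). By 96 h Cdc20 was at 298.1, 292.0 and 291.6 CPM in cytoplasmic RNA, below every 0 h library but short of the threshold (-0.17 ± 0.08, adjusted p = 0.0594).

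Aurkb, the Aurora kinase of the chromosomal passenger complex, stayed up. It was at 111.2, 134.3 and 118.4 CPM at 6 h and at 112.2, 113.2 and 118.2 CPM at 96 h in cytoplasmic RNA, against 85.5, 91.4 and 86.8 CPM at 0 h. Every later library was above every 0 h library, with rises of 0.46 ± 0.07 at 6 h (adjusted p = 2.38e-05) and 0.38 ± 0.07 at 96 h (adjusted p = 6.09e-05). Aurka, the Aurora kinase of centrosomes and the spindle, was at 129.0, 141.1 and 132.6 CPM at 96 h, against 163.5, 175.3 and 168.3 CPM at 0 h, and fell by 0.33 ± 0.09 (adjusted p = 0.00317). Aurka and Aurkb thus differed in direction at 96 h, in nuclear RNA too, where Aurkb rose by 0.35 and Aurka fell by 0.25; without run 6 neither nuclear change passed, and without run 5 that of Aurka did not. Bub1b, a kinase-like protein of the spindle checkpoint, was at 279.2, 278.9 and 293.9 CPM at 96 h in cytoplasmic RNA, against 308.9, 320.2 and 323.3 CPM at 0 h (-0.16 ± 0.08, adjusted p = 0.0671). It peaked at 24 h, with 439.6, 443.7 and 457.1 CPM.

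The promoters of the mitotic group are shown because a short element, the cell cycle genes homology region (CHR), is known from promoters of G2 and M genes. It was searched as TTTGAA and TTCGAA on both strands; TTCGAA is its own reverse complement. These words occurred in 12 of 32 members with a window (37.5%), against 21.7% of all 27025 genes, and in 7 of 7 mitotic genes with a window; Aurkb had none and was not searched. CCAAT was found on either strand in 23 of 32 members (71.9%), against 41.1% of all genes, among them the same 7 mitotic genes. Windows counted are as above, and the capitals mark the CHR word on the transcribed strand. The stretches lie on the minus strand at chr4:118437344-118437373 (Cdc20), chr2:172370521-172370550 (Aurka), chr2:127831828-127831857 (Bub1) and chr7:135716460-135716489 (Mki67), and on the plus strand at chr2:118598011-118598040 (Bub1b) and chr7:122159453-122159482 (Plk1).
Cdc20: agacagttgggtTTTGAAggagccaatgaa
Aurka: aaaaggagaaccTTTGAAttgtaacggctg
Bub1: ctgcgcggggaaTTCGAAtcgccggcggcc
Bub1b: tctctccctgggTTCGAAggcttgtcttag
Plk1: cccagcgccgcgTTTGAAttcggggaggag
Mki67: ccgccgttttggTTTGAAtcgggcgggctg
The mitotic gene Top2a, a topoisomerase of mitotic chromosomes, held 4 such words. Outside this group the words were found in Ccnb2, Cdk1, Cdc45, Mcm2 and Mcm7, and Cdk1 and Mcm7 held both kinds of word. A word this short is frequent by itself, as its share over all genes shows.

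Levels in the nuclear and cytoplasmic fractions were close for the members. CPM is scaled within each library, so these values do not give amounts per compartment. The paper raises the possibility that fractionation worked poorly and left much cytoplasmic RNA in the nuclear fraction, which was not tested here. Over all times, 6 of 31 were higher and 7 lower in nuclear than in cytoplasmic RNA (13.9% and 17.2% of 11817 genes, 31.1% together), with a median difference of -0.03 against -0.01 over all genes. Higher in nuclear RNA were Gins1, Tk1, Cdk2, Cdk6, Cdkn1a and Cdc20, by at most 0.23 ± 0.07 on the log2 scale (Cdk6, adjusted p = 0.0109). Lower in nuclear RNA were Mcm4, Mcm6, Cdc6, Rrm2, Ccna2, Bub1 and Top2a, by at most 0.31 ± 0.03 (Mcm4, adjusted p = 6.55e-10). Mcm4 held 249.6, 277.5 and 273.7 CPM in nuclear libraries at 96 h, against 322.1, 329.2 and 308.7 CPM in cytoplasmic ones, and every nuclear library lay below every cytoplasmic one at that time. Without run 6 none of the 6 higher calls passed and 6 of the 7 lower ones did, all but Cdc6. With nuclear and cytoplasmic RNA of the same dish paired, Gins1 and Cdk6 did not pass.

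The 96 h change did not differ between fractions for any member past the threshold. Over all genes 0 of 11817 passed (0.0%) by edgeR, 814 had an unadjusted p under 0.05, and DESeq2 called 4. Among the members Ccnd2, Cdk2 and Cdk6 had an unadjusted p under 0.05. For Cdk6 the nuclear change minus the cytoplasmic change was -0.87 ± 0.28 (adjusted p = 0.527), and for Cdk2 it was -0.39 ± 0.15 (adjusted p = 0.631). With no filter on low counts, Cdk6 did pass (-0.86, adjusted p = 0.0302).

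**Figure D3:**
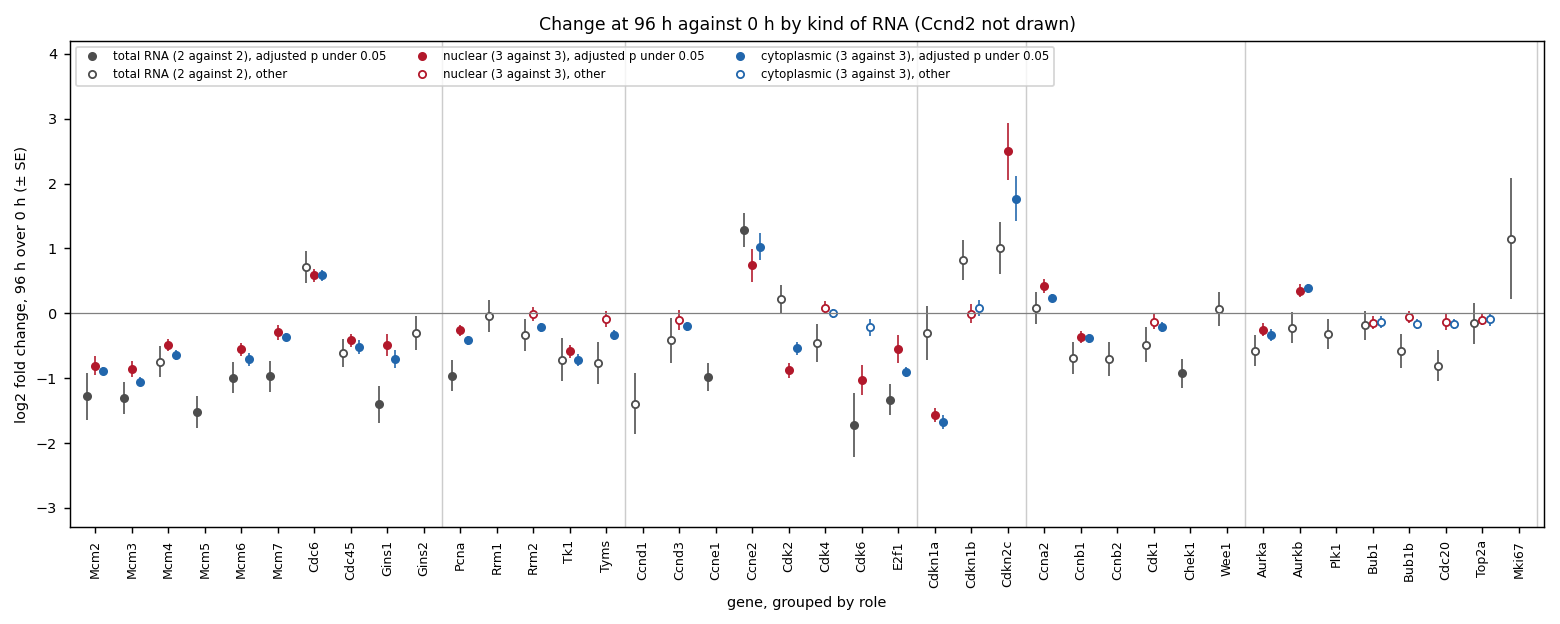
Log2 fold change of 96 h over 0 h (y axis, with standard error bars) for each gene (x axis) in total, nuclear and cytoplasmic RNA. Filled points have an adjusted p under 0.05, and Ccnd2 is not drawn. The Mcm genes lie below 0 in every kind of RNA in which they are listed. Cdk2 lies above 0 in total RNA and below it in both fractions.

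Unsorted total RNA was sequenced in a single-end and a paired-end series. The single-end series had 2 libraries at 96 h and 2 at 0 h, numbered 1 and 2, and 1 library with no number at 6, 24, 36, 48 and 72 h. The paired-end series, numbered 3, had 1 library at each of 5 times up to 48 h, so the test at 96 h rests on 2 libraries a time. The summed XEN markers in these libraries were at 27630 and 36680 CPM at 96 h, against 229.2 and 372.4 CPM at 0 h, and their part was not tested. Of 41 members, 2 rose and 11 fell (16.4% and 13.3% of 15777 genes, 29.7% together), with a median of -0.57 against -0.01 over all genes. Those that rose were Ccnd2 and Ccne2, and those that fell were Mcm2, Mcm3, Mcm5, Mcm6, Mcm7, Gins1, Pcna, Ccne1, Cdk6, E2f1 and Chek1. The count of 13 dropped to 7 without either 0 h library, to 6 without the second 96 h library and to 1, Ccnd2, without the first.

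In total RNA Mcm3 was at 201.5 and 226.9 CPM at 96 h, against 539.2 and 514.7 CPM at 0 h, a change of -1.30 ± 0.25 (adjusted p = 0.0148). Cdkn1a was at 235.5 and 139.0 CPM at 96 h, against 302.5 and 157.3 CPM at 0 h, and the times overlapped (-0.30 ± 0.42, adjusted p = 0.617). The single-end libraries between them held 82.0 CPM of Cdkn1a at 6 h, 50.8 at 24 h, 79.6 at 48 h and 138.3 at 72 h, each below both 0 h libraries. In the paired-end series it was at 35.3 CPM at 12 h, against 153.6 CPM at 0 h.

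Genes listed in total RNA only are given for all 10, with the single-end libraries 1 and 2 in that order at 96 h and 0 h. Mcm5, a helicase subunit, was at 205.8 and 202.3 CPM at 96 h, against 586.5 and 579.2 CPM at 0 h, without overlap, and fell by 1.52 ± 0.24 (adjusted p = 0.00941). Gins2, a GINS subunit, was at 68.9 and 49.5 CPM at 96 h, against 77.1 and 68.3 CPM at 0 h, and overlapped (-0.30 ± 0.26, adjusted p = 0.419). Rrm1, the large subunit of ribonucleotide reductase, was at 258.0 and 278.2 CPM at 96 h, against 306.1 and 243.0 CPM at 0 h, and overlapped too (-0.04 ± 0.25, adjusted p = 0.918). Mcm5 thus followed the other Mcm genes, and neither Gins2 nor Rrm1 passed the test.

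Ccnd1, cyclin D1, was at 44.98 and 107.6 CPM at 96 h, against 242.8 and 156.5 CPM at 0 h. The single-end libraries between them held 79.4 CPM at 6 h, 33.0 at 24 h, 22.5 at 36 h and 89.6 at 72 h, each below both 0 h libraries. The paired-end series started lower, with 36.2 CPM at 0 h, 65.5 at 12 h, 37.5 at 24 h and 25.1 at 36 h, so an early drop was seen in the single-end series only. The 2 libraries at 96 h lay below both single-end libraries at 0 h, but the change of -1.39 ± 0.47 did not pass (adjusted p = 0.0749). Ccne1, cyclin E1, was at 100.1 and 96.1 CPM at 96 h, against 196.6 and 189.3 CPM at 0 h, and fell by 0.98 ± 0.22 (adjusted p = 0.0238), while its relative Ccne2 rose. Before that single libraries of Ccne1 lay above 0 h, with 292.9 CPM at 6 h in the single-end series, and with 319.0 CPM at 12 h against 83.5 CPM at 0 h in the paired-end series.

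Chek1, the checkpoint kinase of stalled forks, was at 41 and 46.4 CPM at 96 h, against 85.5 and 79.8 CPM at 0 h, without overlap, and fell by 0.93 ± 0.23 (adjusted p = 0.0304). Wee1, the kinase that holds Cdk1 inactive, was at 48.3 and 37.8 CPM at 96 h, against 37.0 and 45.2 CPM at 0 h (0.06 ± 0.26, adjusted p = 0.882). Ccnb2, cyclin B2, was at 81.4 and 57.5 CPM at 96 h, against 113.4 and 112.2 CPM at 0 h (-0.71 ± 0.26, adjusted p = 0.0943). Of these Chek1 was the only one to pass.

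Plk1, the Polo kinase of mitosis, was at 147.3 and 123.1 CPM at 96 h, against 160.1 and 176.2 CPM at 0 h (-0.32 ± 0.24, adjusted p = 0.343). Mki67, which encodes the Ki-67 protein that coats mitotic chromosomes, was at 55.9 and 262.0 CPM at 96 h, against 24.2 and 118.3 CPM at 0 h. The times overlapped, and the change of 1.15 ± 0.94 did not pass (adjusted p = 0.392). With a block by replicate number, an alternative that rests on a shared number only, edgeR's test did call a rise (1.17 ± 0.15, adjusted p = 0.00406). In the paired-end series Mki67 was between 423.9 and 529.0 CPM at all 5 times, above every single-end library.

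**Figure D4:**
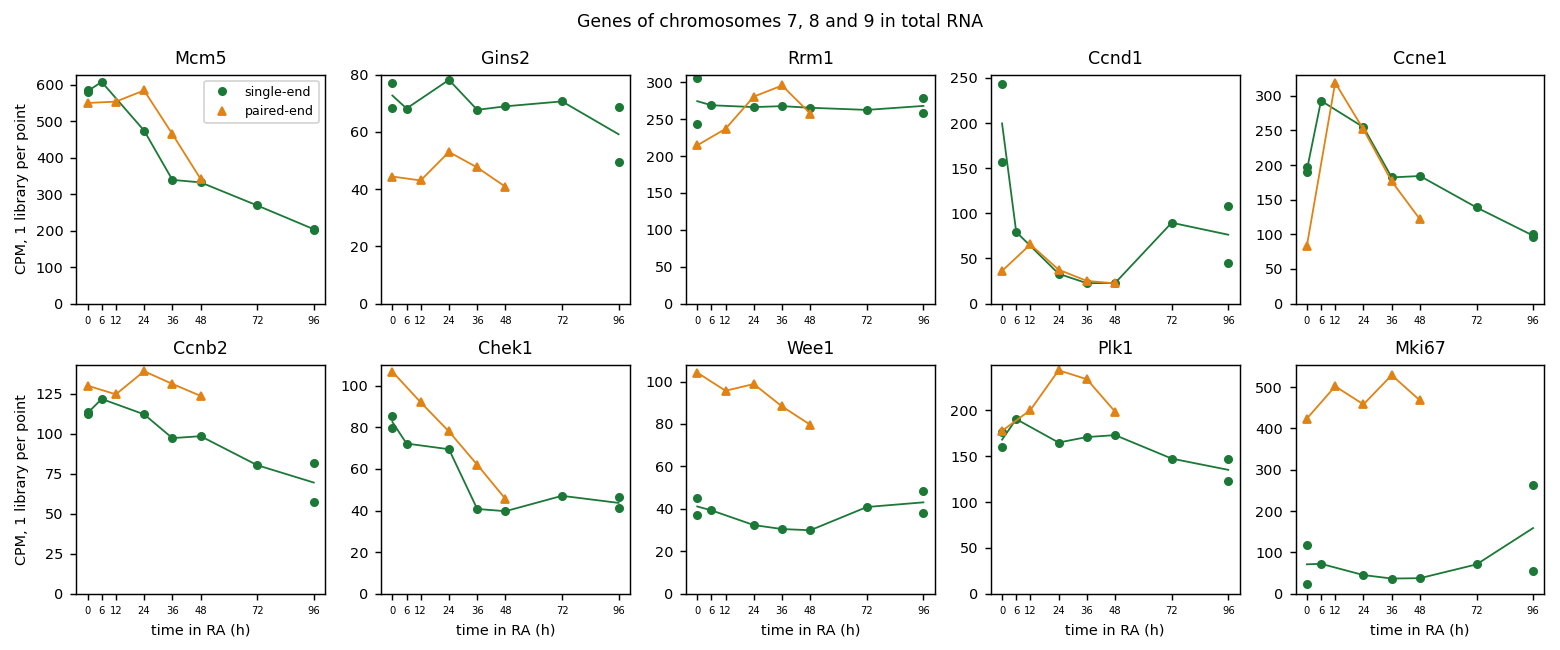
CPM in total RNA (y axis) against time in RA in hours (x axis) for the 10 genes listed in total RNA only, 1 panel each, with 1 point per library and a line through the mean at each time of the single-end and of the paired-end series. Mcm5 and Chek1 end at 96 h below their 0 h level, Ccne1 is highest at 6 h in the single-end and at 12 h in the paired-end series, and Mki67 is higher in every paired-end library than in any single-end one.

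At times measured in both series, with 1 library each and no test, counts differed at 24 h and were closer at 48 h as labelled. Changes here are of log2(CPM + 1), in the single-end series against the mean of both 0 h libraries. At 24 h 29 of 41 were below 0 h in the single-end series and 11 in the paired-end series, with medians of -0.09 and 0.20. At 48 h 30 of 41 were below 0 h in both series and 4 were above in both, with medians of -0.44 in the single-end and -0.30 in the paired-end series. Counted against both single-end 0 h libraries, 21 members lay below both at 24 h and 31 at 48 h. The single-end 36 h and 48 h libraries differed from each other by about the sampling noise, so they may be 1 library and are not read as separate times. The median squared difference was 1.2 times the noise, and the next closest of 91 pairs had 9.0. The closer counts at 48 h thus rest on the time label of that library. At 36 h, 37 of 41 were below 0 h in the single-end series and 22 in the paired-end series, with medians of -0.44 and -0.04.

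Other genes of the same processes are counted from pathway lists, of which 3 genes each are named by lowest adjusted p. Of 32 other replication genes tested in cytoplasmic RNA at 96 h, 7 rose and 17 fell (33.3% and 34.4% of all genes), with a median of -0.22 against -0.02 over all genes. Mcm10, which helps start the helicase, fell to 120.5 ± 5.73 CPM at 96 h, against 268.4 ± 22.1 CPM at 0 h, by 1.16 on the log2 scale. Orc1, a subunit of the origin recognition complex, was at 60.4 ± 6.03 CPM at 96 h, against 170.7 ± 15.3 CPM at 0 h, a change of -1.50, and Rpa2, of the single-strand binding complex, fell by 0.66. Of 32 other mitosis genes 25 rose and 1 fell at 6 h in cytoplasmic RNA (16.2% and 17.1% of all genes), and 4 rose and 12 fell at 96 h (33.3% and 34.4%), where the share that fell is near that of all genes. The phosphatase gene Cdc25b rose by 0.93 at 96 h, the securin gene Pttg1 fell by 1.83 and Ccnf, cyclin F, by 0.73.

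Of 28 other cell cycle regulators, 14 rose and 10 fell at 96 h in cytoplasmic RNA (33.3% and 34.4% of all genes), the fallen share near that of all genes. Mybl2, a factor that acts with E2F-bound promoters in G1/S and with CHR promoters in G2, fell to 225.8 ± 40.0 CPM at 96 h, against 861.3 ± 33.2 CPM at 0 h, by 1.93 on the log2 scale. Trp53, which encodes p53, the activator of Cdkn1a, was at 169.9 ± 4.12 CPM at 96 h, against 439.7 ± 11.4 CPM at 0 h, a change of -1.37. Myc, a driver of growth and of G1 entry, was at 54.2 ± 11.8 CPM at 96 h, against 5.64 ± 1.73 CPM at 0 h, a change of 3.30.

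Sorted XEN and ECT cells at 96 h were 1 library each, with 28422965 counts in XEN and 36228870 in ECT, so no test was possible and the values describe these libraries. One label gives the surface gate of both libraries the other way round from the sorting protocol; the library named XEN held 751.7 CPM of Pdgfra, against 202.4 CPM in ECT, and 21.0 CPM of Cd24a, against 637.8 CPM in ECT, which fits the protocol. The library named ECT still held endoderm markers, with a summed level of 12390 CPM of 11 XEN markers, against 31240 CPM in XEN, and 7 fibroblast markers summed to 6.32 CPM in XEN, against 231.4 CPM in ECT, of which Acta2 alone held 201.6 CPM. Their part in the differences below was not tested.

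Most cell cycle genes were alike in both sorted libraries. Of 41 members, 3 differed at least 2-fold (17.6% of 15088 genes did), 1 of them higher and 2 lower in XEN, and 38 lay within 2-fold. With plain CPM, that is without the TMM factor, 2 members passed, both lower in XEN, and Cdc6, the only one higher in XEN, did not. Over all genes 692 were at least 2-fold higher and 1962 lower in XEN. Ratios here are of CPM + 1, which understates the change of low genes. Smaller differences leaned to XEN: 31 members were higher and 10 lower in XEN, with a median log2 ratio of 0.20, against -0.02 over all genes. All 5 fork and nucleotide genes and all 8 mitotic genes were higher in XEN. These directions hold with the TMM factor and were not counted with plain CPM. They depend on the factor for genes near even: Pcna had 3007 of 28422965 counts in XEN and 4600 of 36228870 in ECT, a smaller share in XEN.

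Ccnd1 differed most. It had 1.87 CPM in XEN (48 counts), against 124.4 CPM in ECT (4978 counts), 43.6-fold higher in ECT. Cdk6, the kinase that partners D cyclins, had 0.976 CPM in XEN (25 counts), against 16.9 CPM in ECT (678 counts), 9.08-fold higher in ECT. The other D cyclins were present in both libraries, Ccnd2 with 182.4 CPM in XEN and 242.8 CPM in ECT, and Ccnd3 with 236.3 CPM in XEN and 141.1 CPM in ECT. XEN cells thus held cyclin D2 and D3 RNA with very little cyclin D1 and Cdk6 RNA, while Cdk4 was at 493.6 CPM in XEN and 695.6 CPM in ECT.

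On the other side, Cdc6 was at 160.2 CPM in XEN and 77.1 CPM in ECT, Ccna2 at 392.0 CPM in XEN and 197.6 CPM in ECT, and Tk1 at 73.9 CPM in XEN and 39.7 CPM in ECT. Cdk1 was at 328.5 CPM in XEN and 200.8 CPM in ECT. The Mcm genes were near even, with Mcm3 at 191.3 CPM in XEN and 169.7 CPM in ECT and Mcm6 at 180.7 CPM in XEN and 208.3 CPM in ECT. Among the other regulators the CDK inhibitor gene Cdkn1c, which encodes p57, was at 10.97 CPM in XEN and 174.9 CPM in ECT, and Mycn at 222.4 CPM in XEN and 91.3 CPM in ECT.

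**Figure D5:**
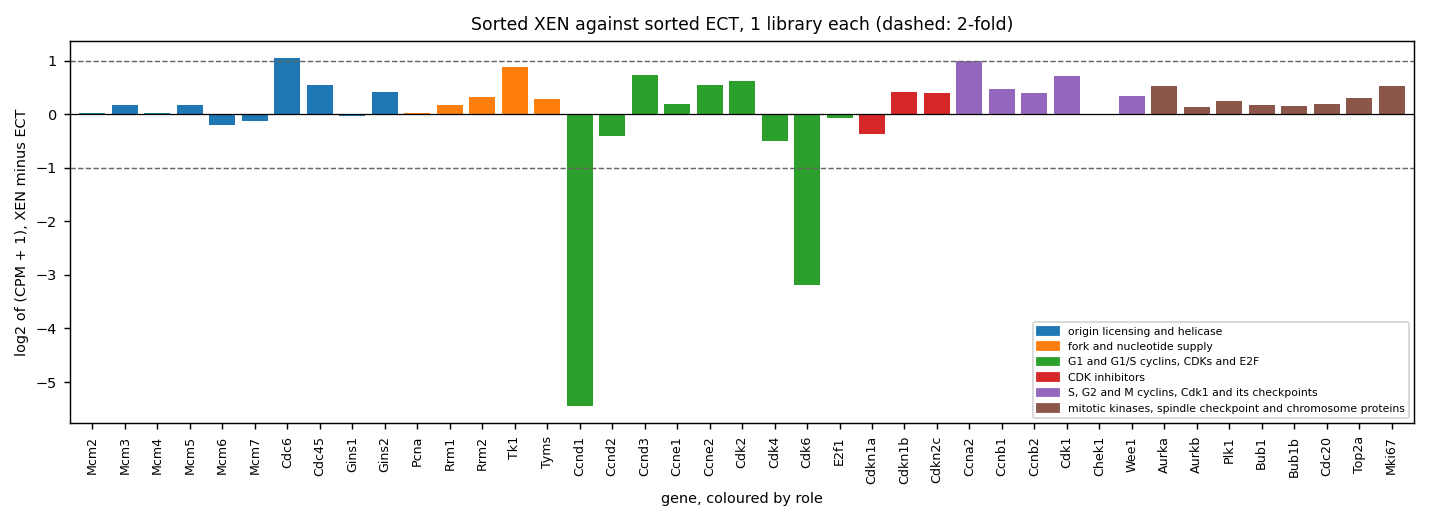
Difference of log2(CPM + 1), XEN minus ECT, at 96 h (y axis) for each of the 41 genes (x axis), 1 library each, so bars carry no error. Ccnd1 and Cdk6 lie far to the ECT side, Cdc6 and Ccna2 reach furthest to the XEN side, and most genes lie near 0.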

How the data were processed

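Expected counts per gene, which need not be whole, were estimated by the authors with RSEM and deposited without scaling; they were rounded here. Per the labels, fractions and paired-end total RNA were processed with Trimmomatic 0.38, STAR 2.6.1a and RSEM 1.3.1, and single-end and sorted RNA with Bowtie2 2.2.6 and RSEM 1.2.28, all on mm10. The authors also deposited TPM for the same genes, used here only to rank genes at one time; in the fractions TPM was scaled over the chromosomes listed. edgeR 4.0.16 (R 4.3.3) was run with TMM factors on genes with a mean count above 10. Fits ran over all 24 libraries of a fraction, over both fractions, or over the single-end total RNA libraries at 0 h and 96 h. Quasi-likelihood p-values were adjusted by Benjamini-Hochberg over all genes tested. CPM used TMM factors from all libraries of a kind, that is of each fraction, each total RNA series or the sorted cells. Scripts were tested on simulated data. Sorted libraries were compared as log2(CPM + 1), with 2-fold as the mark.

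The members, role groups, pathway lists and tests were chosen with earlier results of these data known. Values per library are given for up to 4 members of a role group by lowest adjusted p at 96 h in cytoplasmic RNA, for members called against most of their group and for genes listed in total RNA only; others are named as chosen after their values were seen. Runs 5, 6 and 7 are called biological replicates in the labels and not stated to be separate cell stocks, so p-values measure the spread between these runs. Same-run libraries deviated together weakly (median correlation 0.08 in cytoplasmic and 0.09 in nuclear RNA, over 0.1 in 38 and 39 of 84 pairs). Nuclear and cytoplasmic libraries of 1 run and time were taken as 1 dish, which the labels do not name. Their median correlation was -0.06, and 5 of 24 pairs were over 0.1. The single-end total RNA libraries share at most a replicate number, which was not used to pair them, and those of 6 to 72 h have none. DESeq2 1.42.0, other filters and scaling, leaving out each run and a block by run were alternatives. Gene positions are from GENCODE M21. Small RNA, mimic and inhibitor libraries were not used here.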

Additional observations from a re-analysis of the deposited data

Results flagged for a closer look

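The 96 h change of Cdk2 ran in opposite directions in total RNA and in both fractions, with every library on its own side. In total RNA both 96 h libraries were above both 0 h libraries, with changes of 0.11 to 0.33 on the log2 scale over the 4 pairs, and in cytoplasmic RNA it was below 0 in runs 5, 6 and 7, at -0.65 to -0.34, a difference of 0.76 between the mean changes. In nuclear RNA the range was -1.11 to -0.74, a difference of 1.10. Cdk4 was below 0 in all 4 pairs of total RNA, at -0.76 to -0.11, and above 0 in nuclear RNA, at 0.08 to 0.10, a difference of -0.52. None of these differences between kinds of RNA was tested, since total RNA and the fractions came from different runs, library types and alignments.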

How the results depend on the processing

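No result reversed. Of the calls of single members checked under the alternatives, 784 kept their call with the same direction and 131 fell short of the threshold. For the difference between fractions, no filter on low counts gave 1 member in place of 0. In total RNA at 96 h, a block by replicate number gave 26 members, 5 higher and 21 lower, in place of 13; the libraries share only a number there, whose deviations correlated by 0.42. The blocks by run changed no other count by over 1.5 times and lost no call in the fractions, while pairing by dish lost Gins1 and Cdk6 between nuclear and cytoplasmic RNA. For sorted cells, 1.5-fold as the mark gave 8 genes, 6 higher and 2 lower in XEN, in place of 3, as a lower mark takes in more genes. The cause was not tested for the count without a filter or for the block in total RNA. Leaving out 1 run at a time gave cytoplasmic counts of 10 to 18 at 6 h, 12 to 16 at 12 h, 13 to 19 at 24 h, 17 to 22 at 36 h, 15 to 22 at 48 h, 19 to 23 at 72 h and 21 to 25 at 96 h. Nuclear counts were 10 to 15 at 6 h, 10 to 13 at 12 h, 10 to 14 at 24 h, 12 to 15 at 36 h, 11 to 18 at 48 h, 13 to 18 at 72 h and 13 to 20 at 96 h. Between nuclear and cytoplasmic RNA 6 to 16 members passed, in the difference between fractions 0, and in total RNA 1 to 7. These fits have fewer libraries, and which run gave the lowest count differed between comparisons. Leaving out both uneven cytoplasmic libraries, chosen after seeing the data, kept every count within 1.5 times and lost Gins1 between nuclear and cytoplasmic RNA. With 2 libraries a time in total RNA and 1 in sorted cells, small changes there are beyond what these data can show.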
